A study of Mus musculus with 20 samples.

Results

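The genes described are the integrin chains and laminin chains of the mouse, measured by RNA-Seq in subcutaneous LLC1 tumors. Members were chosen by gene symbol (every integrin alpha, integrin beta and laminin alpha, beta or gamma chain) with a total of at least 100 raw reads over the 20 tumors. Of 35226 genes in the count table, 37 carried such a symbol and 34 reached that total. They comprised 7 leukocyte integrin chains, 17 matrix-binding integrin chains and 10 laminin chains. Lamb3 (151 reads) and Lamc3 (190 reads) lay just inside the limit, and Itgb6 (57), Lama1 (43) and Itgad (14) lay outside it. All 34 members also passed the filter on low counts.

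LLC1 is a Lewis lung carcinoma cell line of the mouse. The cells were injected under the skin of the right flank of male C57Bl6/J mice, 8 to 10 weeks old, in a mixture of PBS and Matrigel, a basement membrane extract that itself holds laminin protein. Tumor-bearing mice were randomized to 4 groups, and 5 tumors per group were sequenced, 1 library per tumor. The vehicle group received carrier without drug, the KW6002 group received the adenosine receptor antagonist istradefylline, the cisplatin group received the platinum drug in saline, and the cotreated group received cisplatin and KW6002. No engineered allele is named for the host mice, which kept their own immune and stromal cells, and the tumor cells of all groups came from this 1 line, so a tumor library mixes carcinoma and host RNA. The labels name the agent of vehicle replicate 1 as vehicle and that of the other 4 as vehicle_vehicle, and treating the 5 as 1 group was a choice. The comparisons asked what cisplatin does to the tumor transcriptome, and whether KW6002 alters it alone or on top of cisplatin.

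Integrins are cell surface receptors made of 1 alpha and 1 beta chain, which anchor cells to the extracellular matrix or to other cells and pass signals through adaptor proteins at their short tails. Laminins are trimers of an alpha, a beta and a gamma chain that polymerize into the scaffold of basement membranes, and several integrins bind them through the alpha chain of the laminin. Beta 1 is shared by most matrix receptors, beta 2 and beta 7 are used on leukocytes, and alpha v pairs with several beta chains to bind ligands that carry the amino acid motif RGD. In carcinomas, matrix integrins govern attachment and invasion, while leukocyte integrins govern the arrest of immune cells on vessel walls and their retention in tissue.

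Libraries held 28371364 to 40965731 counted reads. The lowest Spearman correlation of counts between tumors of the same group was 0.979 over 40 pairs. Library codes in the sample descriptions fell into an earlier and a later run of numbers, and the earlier run held 3 cotreated tumors, 2 cisplatin tumors, 2 KW6002 tumors and 1 vehicle tumor, the replicate 1 with the differing label. What the codes mark is not stated in the labels. The epithelial keratins Krt8 and Krt18 averaged 129 and 273 CPM (reads scaled to a library of fixed size) in vehicle tumors, whereas the lung epithelial markers Sftpc and Scgb1a1 never exceeded 2 reads and Epcam never exceeded 5 reads in any tumor. Summed skeletal muscle markers exceeded 50 CPM in 7 tumors (1 vehicle, 1 KW6002, 3 cisplatin and 2 cotreated) and reached 1154 CPM in cotreated replicate 4. The other 13 tumors (4 vehicle, 4 KW6002, 2 cisplatin and 3 cotreated) were also tested alone, a restriction chosen after seeing the data. In such bulk tissue, fewer cells of a type and less RNA per cell cannot be told apart.

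The abundance of the chains spanned more than 3 orders of magnitude when read counts were divided by exon length. On the scale of CPM per kilobase of exon (mean of 20 tumors), Itgb1, the shared beta 1 chain, was the most abundant at 285. The laminin chains Lamb1 at 140.2 and Lamc1 at 81.7, and the leukocyte chain Itgb7 at 92.7, came next. Itgb1 exceeded Lamb1 in all 20 tumors, and Lamb1 exceeded Itgb7 in all 20, whereas Itgb7 exceeded Lamc1 in only 12 of 20. Then followed Itga5 at 55.2, Itgb2 at 53.5, Itga6 at 39.4, Lama5 at 35.6, Itgb5 at 31.95, Itgav at 22.8 and Itga3 at 22.6. Neighbors in this order were not always separated, since Itga5 exceeded Itgb2 in 8 tumors and Itgav exceeded Itga3 in 10 of 20. The least abundant members were Lamb3 at 0.0359, Lamc3 at 0.0475 and Itga8 at 0.153 CPM per kilobase.

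**Figure D1:**
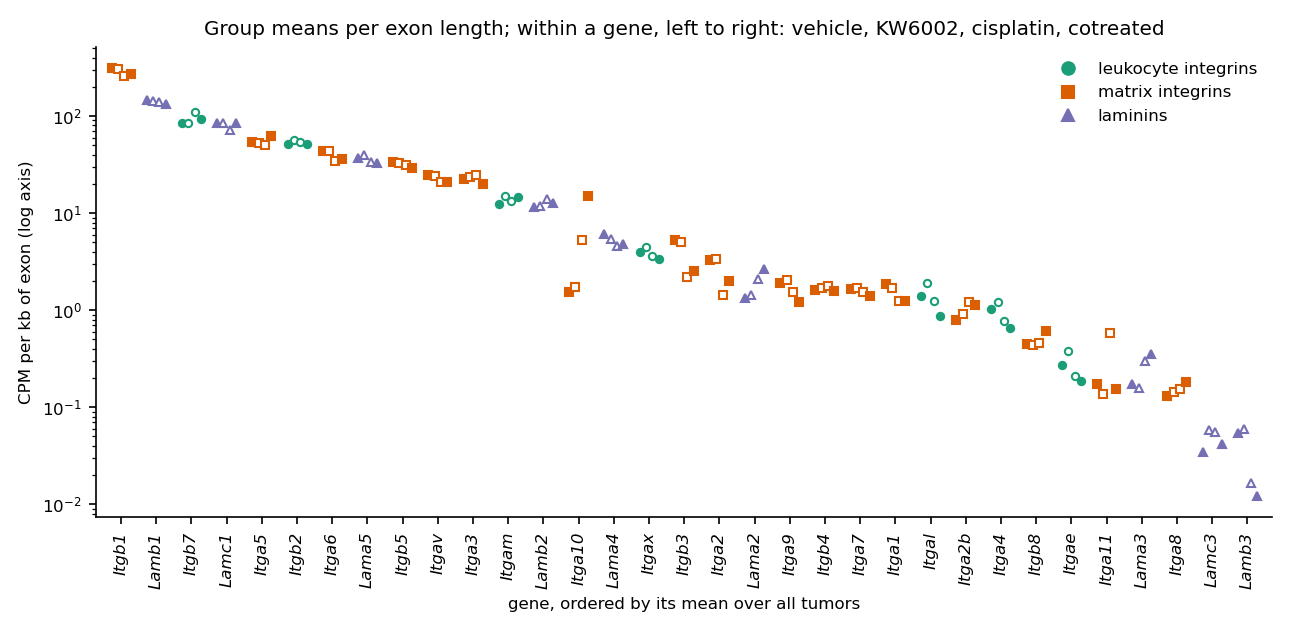
Level of 33 of the 34 integrin and laminin genes in CPM per kilobase of exon, on a log axis, as the mean of the 5 tumors of each group (filled symbols, vehicle and cotreated tumors; open symbols, KW6002 and cisplatin tumors). Itgb1 was highest and Lamb3 lowest over the 20 tumors, and Itga10 went from 1.52 in vehicle to 15.02 in cotreated tumors.

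Changes between groups were tested with edgeR's quasi-likelihood test over all 16665 genes, and a gene was called when its Benjamini-Hochberg adjusted p was under 0.05 and its log2 fold change was at least 0.32 in size. KW6002 alone changed 0 of the 34 members against vehicle by edgeR and 0 by DESeq2, and 3 had an unadjusted p under 0.05, as did 2.03% of all genes. Among all genes in that comparison, 0.0% were called. Cisplatin changed 9 members, 5 higher and 4 lower, against 10.6% of all genes called (6.01% higher, 4.57% lower). Cotreatment changed 11 members against vehicle, 5 higher and 6 lower, against 23.5% of all genes (13.1% higher, 10.4% lower). Between cotreated and cisplatin tumors 2 members were higher and 0 lower, against 4.0% of all genes called (2.29% higher, 1.71% lower). Cotreated and KW6002 tumors differed in 13 members, 4 higher and 9 lower, against 23.3% of all genes (12.6% higher, 10.7% lower). The comparisons with vehicle share the same 5 vehicle tumors, and the comparisons of cotreatment share the 5 cotreated tumors, so they are not independent of each other. Without vehicle replicate 1, all 9 calls after cisplatin and 10 of the 11 after cotreatment passed again, the exception being Itgb8. The earlier codes held 1 vehicle tumor and gave no comparison with vehicle. Among the later codes alone, 8 of the 9 calls after cisplatin, 7 of the 11 after cotreatment and 0 of the 2 between cotreated and cisplatin tumors passed again, and the members that did not are named with their values. Over all 17222 genes tested in these tumors, 2743, 2209 and 1 were called in the same comparisons.

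Split by side, 2 of 7 leukocyte integrins, 5 of 17 matrix integrins and 2 of 10 laminins were called after cisplatin, and 2, 7 and 2 after cotreatment, both against vehicle. These stand beside the same 10.6% and 23.5% of all genes, and the cotreatment counts of leukocyte chains and laminins lie near that background. The median log2 fold change over the 7 leukocyte chains was -0.12 for cisplatin and -0.23 for cotreatment, over the 17 matrix chains -0.09 and -0.19, and over the 10 laminins 0.09 and 0.07. The same medians over all genes tested were 0.00 and -0.02. Of the 34 members, 18 were called in no comparison between groups, beside 70.4% of all genes tested, comprising 9 matrix chains, 7 laminins and the leukocyte chains Itgam and Itgb2.

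**Figure D2:**
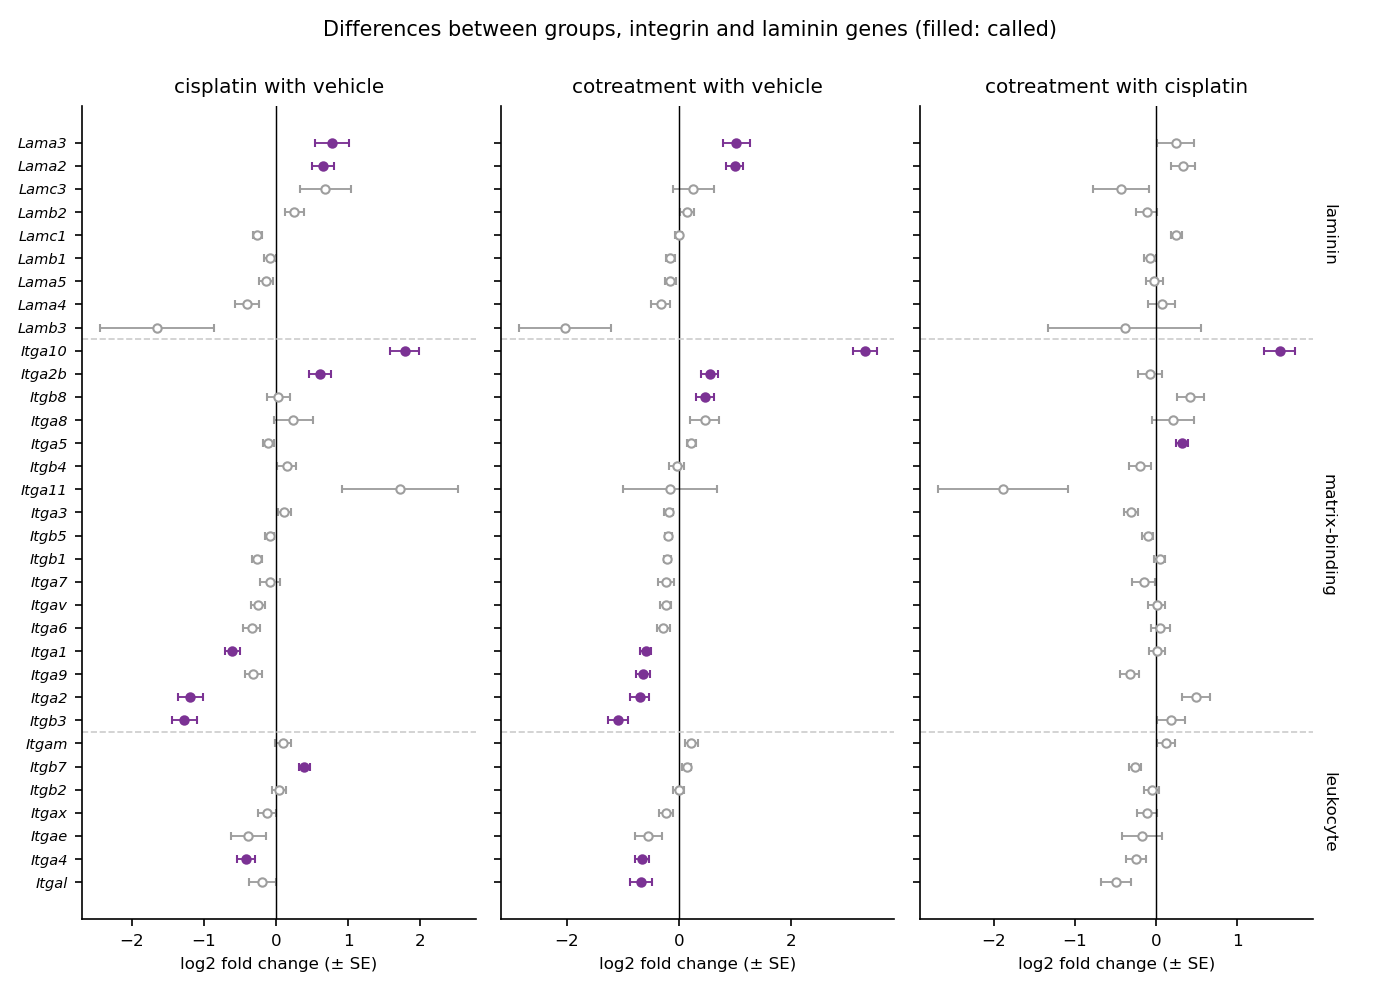
Log2 fold change with its standard error for 33 of the 34 members in 3 panels, which compare cisplatin and then cotreated tumors against the vehicle group, and last the cotreated against the cisplatin group, with called genes filled and dashed lines between leukocyte integrins, matrix-binding integrins and laminins. Itga10 lies farthest to the right among the called genes in each panel, at 1.78, 3.30 and 1.52.

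The receptors for collagen use 4 alpha chains that all pair with beta 1. Of these, 3 were called after cisplatin and after cotreatment, in opposite directions, beside 10.6% and 23.5% of all genes. Itga10, best known from cartilage, rose 3.44-fold with cisplatin and 9.88-fold with cotreatment, while Itga1 fell 1.52-fold and 1.51-fold. Itga2, a receptor of epithelia and platelets, fell 2.28-fold and 1.63-fold. Itga11, a fibroblast receptor for fibrillar collagen, was not called in any comparison.

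Itga10 (ENSMUSG00000090210, chr3:96645584-96664519, plus strand, GRCm38) was low in every tumor that had not received cisplatin. Its values were 7.29, 10.2, 6.66, 7.49 and 7.76 CPM in vehicle replicates 1 to 5, an order kept throughout, and 6.47, 9.77, 10.7, 8.13 and 10.02 CPM in KW6002 tumors. With cisplatin, Itga10 was at 25.6, 26.4, 29.5, 28.9 and 25.2 CPM, and with cotreatment at 70.1, 96.99, 108, 40.5 and 74.4 CPM. The lowest cisplatin tumor stood above every tumor without cisplatin, and the lowest cotreated tumor stood above every cisplatin tumor. The differences from vehicle (cisplatin, log2 fold change 1.78, SE 0.20, adjusted p = 1.7e-05; cotreatment, log2 fold change 3.30, SE 0.21, adjusted p = 1.1e-08) were larger than the spread within groups. Cotreated tumors also exceeded cisplatin tumors (log2 fold change 1.52, SE 0.19, adjusted p = 6.5e-04), by 2.87-fold. Among tumors with earlier codes that difference was 1.82 (adjusted p = 0.026), and among later codes it was 1.05 (adjusted p = 0.18). Cotreated tumors ranged from 70.1 to 108 CPM in the earlier codes and from 40.5 to 74.4 CPM in the later ones. The interaction term, how far the KW6002 difference among cisplatin-treated tumors departed from that among untreated ones, was 1.33 on the log2 scale with an SE of 0.28, which missed the threshold at adjusted p = 0.060. Itga10 shares 33.5% of its exon bases with the same-strand gene model Gm42957, and reads in shared bases are counted for neither gene in the union mode used, so its level per length, and the ratios, shares and sums built on it, may be understated. Gm42957 itself drew 214 reads over the 20 tumors.

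The sequences upstream of 3 of these collagen receptor genes are shown because Itga10 moved against Itga1 and Itga2, and that of the fibronectin receptor Itga5 because it was the only other member called higher in cotreated than in cisplatin tumors. They come from RefSeq (GRCm38.p6), cover up to 250 bases before the annotated start (for Itga10 the 217 bases free of any annotated exon), run 5′ to 3′ on the gene's strand, and carry in capitals any match to the motifs named below.
Itga10 (chr3:96645367-96645583, plus strand): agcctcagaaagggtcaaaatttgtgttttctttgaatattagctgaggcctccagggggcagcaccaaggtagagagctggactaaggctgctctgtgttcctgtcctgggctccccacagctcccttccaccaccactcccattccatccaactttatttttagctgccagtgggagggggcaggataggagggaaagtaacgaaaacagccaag
Itga1 (chr13:115101965-115102214, minus strand): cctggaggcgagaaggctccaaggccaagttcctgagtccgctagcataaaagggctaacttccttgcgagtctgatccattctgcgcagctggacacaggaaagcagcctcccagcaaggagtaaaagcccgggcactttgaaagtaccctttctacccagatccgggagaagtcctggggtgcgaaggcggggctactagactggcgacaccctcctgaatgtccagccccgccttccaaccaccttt
Itga2 (chr13:114932101-114932350, minus strand): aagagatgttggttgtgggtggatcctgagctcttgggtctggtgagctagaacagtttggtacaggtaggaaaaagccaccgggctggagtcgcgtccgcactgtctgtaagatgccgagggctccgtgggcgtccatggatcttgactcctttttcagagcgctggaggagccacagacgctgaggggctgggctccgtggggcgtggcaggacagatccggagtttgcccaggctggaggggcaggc
Itga5 (chr15:103366792-103367041, minus strand): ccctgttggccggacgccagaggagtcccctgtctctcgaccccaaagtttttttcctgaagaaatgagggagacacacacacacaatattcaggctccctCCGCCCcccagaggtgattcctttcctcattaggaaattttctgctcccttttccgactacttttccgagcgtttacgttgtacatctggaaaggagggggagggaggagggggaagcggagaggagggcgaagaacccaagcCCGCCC

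Of the 34 members, 22 had an entry in the RefSeq table, giving 24 windows of 250 bases. A further 12 were not in it, among them Itga6, Itga7, Itgae, Itgal, Itgb2, Itgb3, Itgb4, Lama3, Lama4, Lamc1 and Lamc3. The letters of 5 motifs were searched on both strands. The TATA box (TATAAA) occurred in 0 of the 24 windows against 12.4% of all 32851 windows. The CCAAT box (CCAAT) occurred in 4 against 33.8%, the GC box (GGGCGG) in 9 or 37.5% against 32.7%, and the AP-1 site (TGANTCA) in 1 against 6.75%. The p53 half-site, a single copy of the 10-letter pattern that a full response element holds as a pair, occurred in 1, that of Itga9, against 7.13%. That window and 5 others (1 of Itga3, those of Itgb8 and Lama2 and both of Lamb3) lie inside the gene as GENCODE M21 draws it, because the RefSeq start is downstream of the first annotated one. The windows of Itga10, Itga1, Itga2 and Lama2 held none of these letters, and that of Itga5 held 2 GC boxes, read there on the opposite strand as CCGCCC. The median GC content was 58.6% in the members' windows and 52.4% in all windows. A match is only an occurrence of these letters, and none says that a factor does or does not act there.

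Itga1 and Itga2 lie next to each other on the same strand of chromosome 13, 21.0 kb apart. Itga1 (ENSMUSG00000042284, chr13:114953096-115101964, minus strand) had 33.8, 32.98, 34.5, 37.1 and 35.02 CPM in vehicle tumors and 36.1, 32.2, 26.9, 30.2 and 31.4 CPM in KW6002 tumors. With cisplatin, Itga1 was at 28.4, 26.6, 20.6, 18.5 and 20.2 CPM, and with cotreatment at 23.4, 23.1, 23.3, 24.5 and 20.7 CPM. Neither cisplatin-treated group reached the vehicle range. The test called Itga1 lower after cisplatin (log2 fold change -0.60, SE 0.10, adjusted p = 3.7e-04) and after cotreatment (log2 fold change -0.59, SE 0.10, adjusted p = 1.1e-04), and the difference between cotreated and cisplatin tumors missed the threshold (log2 fold change 0.01, adjusted p = 0.97). Itga2 (ENSMUSG00000015533, chr13:114833081-114932100, minus strand) had 22.6, 27.2, 25.1, 25.3 and 15.9 CPM in vehicle tumors and 30.3, 22.7, 18.4, 24.3 and 23.6 CPM in KW6002 tumors. With cisplatin, Itga2 was at 12.04, 11.7, 11.6, 6.35 and 9.27 CPM, and with cotreatment at 15.8, 13.1, 14.3, 16.98 and 11.1 CPM. All 5 cisplatin tumors lay below all vehicle tumors, whereas cotreated replicate 4 lay above the lowest vehicle tumor. Itga2 was called lower after cisplatin (log2 fold change -1.19, SE 0.17, adjusted p = 1.3e-04) and after cotreatment (log2 fold change -0.70, SE 0.17, adjusted p = 0.0031), the latter not among later codes alone, where the log2 fold change was -0.71 (adjusted p = 0.10). The difference between cotreated and cisplatin tumors missed the threshold (log2 fold change 0.49, SE 0.17, adjusted p = 0.096). Itga11 averaged 0.895 ± 0.367, 0.702 ± 0.310, 2.95 ± 3.68 and 0.795 ± 0.569 CPM in vehicle, KW6002, cisplatin and cotreated tumors. Cisplatin replicates 4 and 5 stood at 5.52 and 8.18 CPM, against at most 0.454 CPM in the other three, so the cisplatin mean rests on those tumors.

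Per length, Itga10 was below Itga2 in vehicle tumors, with a mean ratio of 0.481, and above it after cisplatin at 3.90 and cotreatment at 7.81. As a share of the summed level per length of the 4 collagen-binding chains, Itga10 made up 22.3 ± 3.19% in vehicle, 25.5 ± 6.28% in KW6002, 61.8 ± 4.66% after cisplatin and 80.03 ± 7.995% after cotreatment (each with its SD over 5 tumors). The share rose by 39.5 percentage points with cisplatin and by 57.7 with cotreatment. Both had p = 0.00794 in a two-sided exact permutation test, the smallest that 5 against 5 tumors allow, and an adjusted p of 0.0408 over the 36 share tests made. Cotreated and cisplatin tumors differed by 18.2 points (exact permutation p = 0.0159, adjusted p = 0.0519). The summed level of the 4 chains was 6.82 ± 0.671, 6.90 ± 0.538, 8.47 ± 0.264 and 18.4 ± 4.78 CPM per kilobase in the 4 groups, in the same order. These ratios, shares and sums depend on the annotated exon lengths, which were 18.6 kb for Itga1 and 5.19 kb for Itga10.

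**Figure D3:**
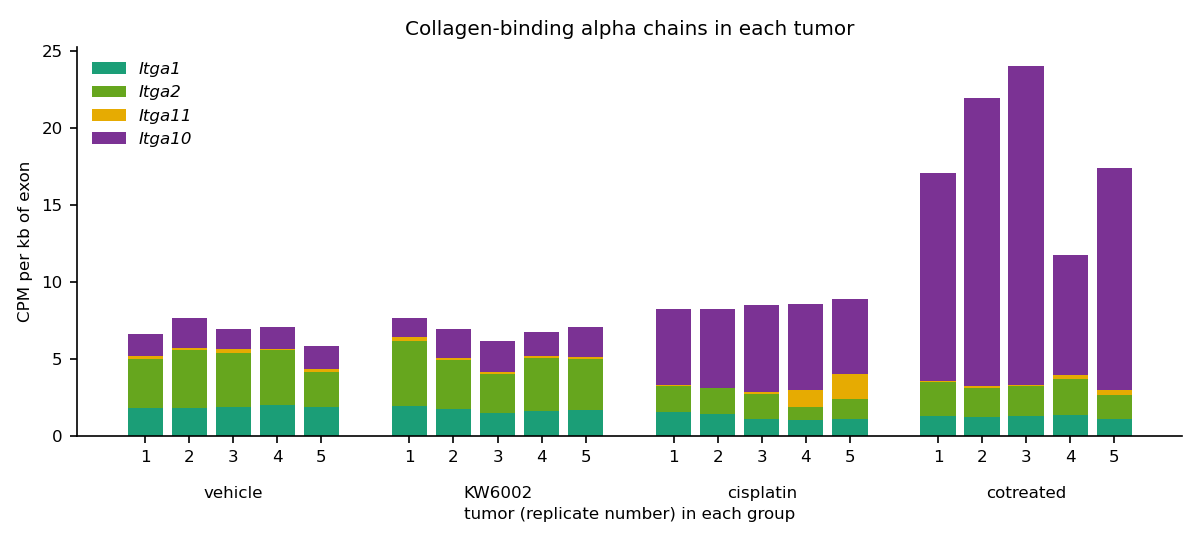
Stacked bars of the 4 collagen-binding alpha chains Itga1, Itga2, Itga11 and Itga10 in each tumor, in CPM per kilobase of exon. Itga10 makes up a mean of 22.3% of the bar in vehicle tumors and 80.0% in cotreated tumors.

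Among receptors for RGD ligands, the beta chain of the vitronectin receptor fell while its alpha chain was not called. Itgb3, the beta chain of alpha v beta 3 on angiogenic vessels and osteoclasts and of the platelet fibrinogen receptor, fell 2.41-fold with cisplatin and 2.12-fold with cotreatment. Itga5, the alpha chain of the classical fibronectin receptor, rose 1.25-fold from cisplatin to cotreatment. Itgb8, which with alpha v activates latent TGF-beta, and Itga2b, the platelet and megakaryocyte partner of beta 3, rose in some comparisons from low levels.

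Itgb3 (ENSMUSG00000020689, chr11:104608000-104670476, plus strand) had 30.9, 33.2, 34.8, 32.1 and 26.4 CPM in vehicle tumors and 38.8, 26.1, 22.6, 28.98 and 33.9 CPM in KW6002 tumors. With cisplatin, Itgb3 was at 17.3, 12.7, 12.6, 11.9 and 11.0 CPM, and with cotreatment at 19.4, 10.2, 19.7, 12.4 and 12.6 CPM. No cisplatin-treated tumor, with or without KW6002, reached the lowest value of the other groups. It was called lower after cisplatin (log2 fold change -1.27, SE 0.18, adjusted p = 9.5e-05) and cotreatment (log2 fold change -1.08, SE 0.18, adjusted p = 1.0e-04). Its share of the alpha v partners Itgb3, Itgb5, Itgb6 and Itgb8, per length, was 13.6 ± 1.42% in vehicle, 13.2 ± 2.65% in KW6002, 6.44 ± 0.654% in cisplatin and 7.66 ± 1.86% in cotreated tumors. Both falls from vehicle had p = 0.00794 in the exact permutation test and adjusted p = 0.0408. Within this set, which leaves out Itgb1, most of the level came from Itgb5, an epithelial and mesenchymal vitronectin receptor chain. Itgb5 made up 85.3 ± 1.34% and 92.2 ± 0.812% in vehicle and cisplatin tumors. Its means were 119 ± 7.66, 118 ± 5.47, 112 ± 12.3 and 105 ± 6.02 CPM in the 4 groups, and it was not called.

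Itgav, the alpha v chain itself, had 243, 286, 249, 302 and 262 CPM in vehicle and 244, 277, 219, 254 and 289.8 CPM in KW6002 tumors. With cisplatin, Itgav was at 269, 256, 204, 185 and 215 CPM, and with cotreatment at 262, 213, 248, 212 and 200.1 CPM. The groups overlapped, and Itgav was not called (cisplatin, log2 fold change -0.25, SE 0.10, adjusted p = 0.10; cotreatment, log2 fold change -0.24, SE 0.10, adjusted p = 0.071). All 8 of 8 endothelial markers were called lower after cisplatin and 6 of 8 after cotreatment, and their sum ranged over 155 to 230.1 CPM, 133 to 218 CPM, 77.01 to 105 CPM and 83.8 to 125 CPM in vehicle, KW6002, cisplatin and cotreated tumors. Of 6 pericyte and smooth muscle markers, 5 and 6 were called lower, with sums of 86.9 to 156 CPM, 90.1 to 125 CPM, 54.5 to 72.7 CPM and 50.3 to 65.3 CPM. Of all genes, 4.57% were called lower after cisplatin and 10.4% after cotreatment. No marker of either list was at 0 in any group. Their part in the lower Itgb3, Itga1 and Itga2 was not tested.

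Itga5 (ENSMUSG00000000555, chr15:103344286-103366763, minus strand) had 285, 259, 275, 262 and 253 CPM in vehicle tumors and 277, 257, 262, 264 and 256 CPM in KW6002 tumors. With cisplatin, Itga5 was at 223, 249, 251, 249.8 and 269.8 CPM, and with cotreatment at 326, 316, 357, 242 and 313 CPM. In the cotreated group 4 tumors exceeded all others, and cotreated replicate 4 lay within the cisplatin range. Cotreatment against cisplatin was called (log2 fold change 0.32, SE 0.07, adjusted p = 0.014), but the log2 fold change lay close to the limit of 0.32 and was 0.12 (adjusted p = 0.60) among later codes. Without cotreated replicate 1, 2 or 3, or without cisplatin replicate 1, the call was lost (log2 fold change 0.27 to 0.32, adjusted p = 0.029 to 0.056). It was also lost with a term for the library code, with upper quartile scaling, with only these groups in the fit and in the 13 tumors with little muscle marker RNA, at 0.31 (adjusted p = 0.020), 0.32 (adjusted p = 0.017), 0.32 (adjusted p = 0.088) and 0.36 (adjusted p = 0.052). Against vehicle it was 0.22 (adjusted p = 0.025), under the fold limit.

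Itgb8 had 3.52, 5.20, 4.37, 5.37 and 6.03 CPM in vehicle tumors and 4.29, 4.55, 4.46, 5.19 and 5.42 CPM in KW6002 tumors. With cisplatin, Itgb8 was at 6.63, 5.38, 4.39, 3.59 and 5.11 CPM, and with cotreatment at 6.39, 7.85, 8.15, 6.0 and 5.27 CPM. All groups overlapped, with the upper cotreated values above the rest. Itgb8 was called higher in cotreated than in vehicle tumors (log2 fold change 0.46, SE 0.16, adjusted p = 0.033), and not among later codes, at 0.12 (adjusted p = 0.67). The call was also lost without vehicle replicate 1 or 3 or cotreated replicate 2 or 3 (log2 fold change 0.37 to 0.43, adjusted p = 0.064 to 0.081), with a term for the library code, at 0.40 (adjusted p = 0.080), and in the 13 tumors with little muscle marker RNA, at 0.39 (adjusted p = 0.16).

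Itga2b had 4.39, 4.71, 4.47, 3.0 and 4.79 CPM in vehicle tumors and 5.78, 4.16, 4.78, 5.25 and 5.13 CPM in KW6002 tumors. With cisplatin, Itga2b was at 5.85, 5.13, 5.93, 9.08 and 6.75 CPM, and with cotreatment at 6.61, 6.39, 7.33, 5.28 and 5.52 CPM. Every tumor that received cisplatin lay above every vehicle tumor, and the KW6002 tumors overlapped with both. It was called higher after cisplatin (log2 fold change 0.62, SE 0.15, adjusted p = 0.0088) and cotreatment (log2 fold change 0.54, SE 0.15, adjusted p = 0.0081), the latter at 0.37 (adjusted p = 0.24) among later codes. Neither call was kept in the 13 tumors with little muscle marker RNA, at 0.76 (adjusted p = 0.066) and 0.57 (adjusted p = 0.057). Of the 6 platelet and megakaryocyte markers, Gp9 was at 1 read or fewer in every tumor, and 3 were abundant enough to test. After cotreatment Ppbp was lower (log2 fold change -1.70, adjusted p = 0.0057) and Gp5 higher (0.94, adjusted p = 0.0055). The summed list ranged over 36.5 to 69.7 CPM, 34.97 to 149 CPM and 37.2 to 79.5 CPM in vehicle, cisplatin and cotreated tumors. Itga8, an RGD receptor of mesenchyme, averaged 0.971 ± 0.382, 1.05 ± 0.290, 1.15 ± 0.365 and 1.33 ± 0.275 CPM in vehicle, KW6002, cisplatin and cotreated tumors and was not called.

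Itga9 pairs with beta 1 to bind tenascin-C and osteopontin and is prominent on lymphatic endothelium and muscle. Its values were 14.3, 11.3, 15.1, 16.5 and 15.9 CPM in vehicle tumors and 14.8, 18.6, 14.1, 14.4 and 16.8 CPM in KW6002 tumors. With cisplatin, Itga9 was at 12.9, 11.5, 12.98, 11.4 and 10.2 CPM, and with cotreatment at 7.88, 8.24, 10.9, 11.3 and 8.67 CPM. The highest cotreated and the lowest vehicle tumor both rounded to 11.3 CPM without crossing, and the cisplatin tumors overlapped with both groups. Itga9 fell 1.56-fold with cotreatment (log2 fold change -0.64, SE 0.12, adjusted p = 3.2e-04), and cisplatin alone missed the threshold (log2 fold change -0.31, SE 0.12, adjusted p = 0.074).

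**Figure D4:**
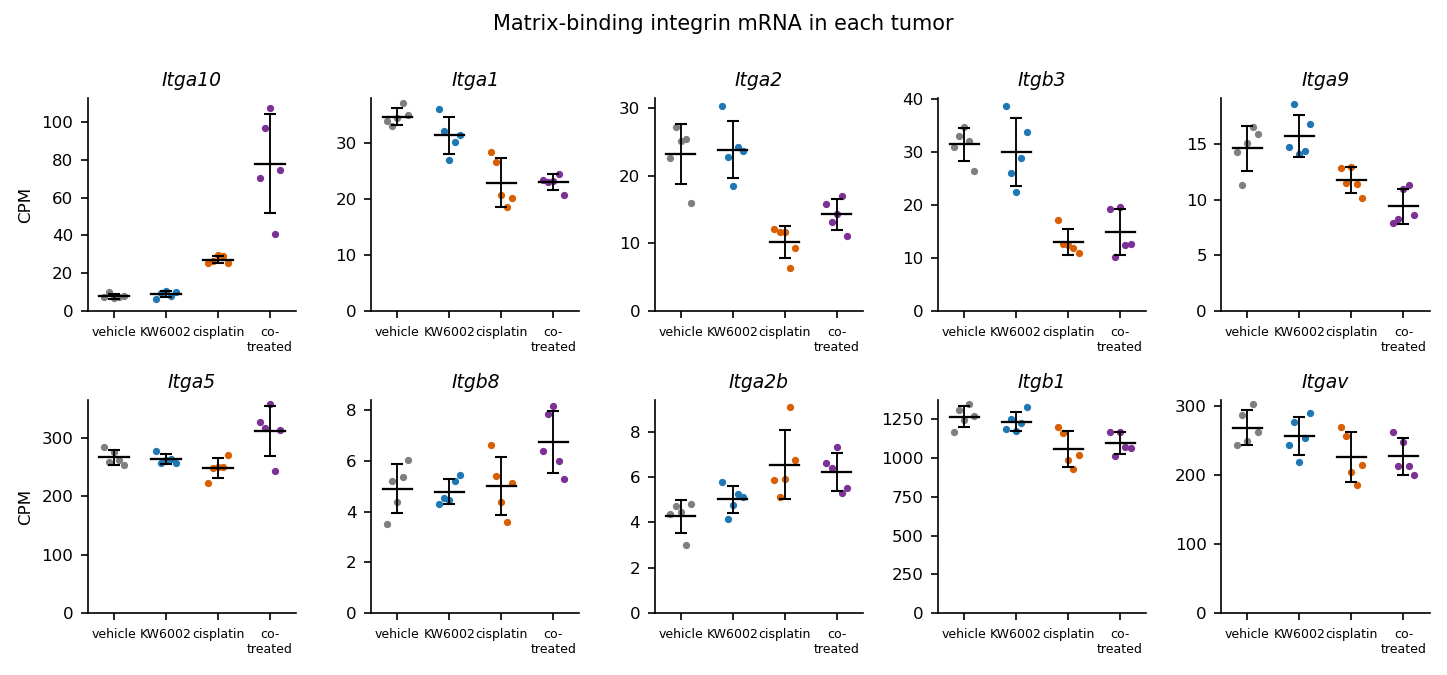
CPM of 10 matrix-binding integrin chains in each tumor (points), with the mean (line) and SD (bars) of the 5 tumors per group. Itga10 steps up from cisplatin to cotreated tumors, Itga1, Itga2 and Itgb3 are lower in both cisplatin-treated groups, and Itgav overlaps among groups.

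Itgb1, the common partner of these alpha chains, had 1165, 1304, 1241, 1349 and 1265 CPM in vehicle tumors and 1185, 1251, 1175, 1225 and 1323 CPM in KW6002 tumors. With cisplatin, Itgb1 was at 1197, 1162, 984, 931 and 1021 CPM, and with cotreatment at 1165, 1008, 1167, 1069 and 1061 CPM. Cisplatin replicates 2 to 5 and cotreated replicates 2, 4 and 5 lay below the vehicle range. The differences passed the adjusted p but stayed under the fold limit (cisplatin, log2 fold change -0.26, SE 0.07, adjusted p = 0.013; cotreatment, log2 fold change -0.21, SE 0.07, adjusted p = 0.020), so Itgb1 was not called. The laminin receptor chains Itga3, Itga6, Itga7 and Itgb4 were not called in any comparison. Itga6, which pairs with beta 1 or beta 4, averaged 394 ± 32.3, 391 ± 34.7, 313 ± 65.1 and 325 ± 38.7 CPM in vehicle, KW6002, cisplatin and cotreated tumors. Itga3, the other epithelial laminin receptor chain, averaged 129 ± 4.48, 135 ± 9.14, 139 ± 21.2 and 113 ± 11.9 CPM. Itga7, the laminin receptor chain of muscle, averaged 13.3 ± 2.24, 13.6 ± 2.13, 12.6 ± 2.26 and 11.3 ± 1.65 CPM, and Itgb4, the hemidesmosome chain, 11.3 ± 1.48, 11.9 ± 1.92, 12.6 ± 1.82 and 10.99 ± 1.94 CPM. For Itga3 the cotreated tumors were lower than the cisplatin tumors at adjusted p = 0.041, with a log2 fold change of -0.30 that stayed under the limit.

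Among laminins, the alpha chains Lama2 and Lama3 were called higher against vehicle, and no other laminin chain tested was called against vehicle. Lama2, the alpha chain of merosin in muscle, nerve and stromal basement membranes, rose 1.57-fold with cisplatin and 1.99-fold with cotreatment. Lama3, the alpha chain of the laminin that anchors epithelia, rose 1.72-fold and 2.03-fold from a low level.

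Lama2 (ENSMUSG00000019899, chr10:26980036-27619758, minus strand) had 21.4, 20.1, 24.8, 17.3 and 24.7 CPM in vehicle tumors and 20.5, 29.8, 22.4, 25.4 and 19.4 CPM in KW6002 tumors. With cisplatin, Lama2 was at 36.97, 31.9, 22.96, 37.8 and 40.8 CPM, and with cotreatment at 40.6, 51.2, 40.7, 34.2 and 48.3 CPM. Every cotreated tumor lay above every vehicle and KW6002 tumor, whereas cisplatin replicate 3 lay within the vehicle range. The test called Lama2 higher after cisplatin (log2 fold change 0.65, SE 0.15, adjusted p = 0.0058) and cotreatment (log2 fold change 0.99, SE 0.15, adjusted p = 5.2e-05), and the difference between cotreatment and cisplatin missed the threshold (log2 fold change 0.34, SE 0.15, adjusted p = 0.18). Skeletal muscle marker sums ranged over 5.25 to 58.6 CPM, 4.44 to 270.3 CPM and 3.81 to 1154 CPM in vehicle, cisplatin and cotreated tumors. In the 13 tumors with at most 50 CPM of muscle markers the log2 fold change of Lama2 was 0.74 (adjusted p = 0.014) for cisplatin and 1.18 (adjusted p = 8.0e-05) for cotreatment. In these 13 tumors 6 of the 9 member calls after cisplatin and 8 of the 11 after cotreatment passed, and those lost are given with each gene. The calls lost after cisplatin, on Itga2b, Itga4 and Lama3, had larger log2 fold changes there than in all 20 tumors. Groups are smaller in this restriction, and the part of muscle RNA in Lama2 or in the lost calls was not tested. After cotreatment 2 further members were gained, and over all 17245 genes tested in these tumors 879 and 3368 were called.

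Lama3 had 2.45, 1.76, 1.73, 2.15 and 1.27 CPM in vehicle tumors and 1.55, 2.10, 1.99, 1.70 and 1.08 CPM in KW6002 tumors. With cisplatin, Lama3 was at 2.60, 4.93, 2.96, 2.39 and 3.19 CPM, and with cotreatment at 3.499, 2.70, 3.85, 3.11 and 5.90 CPM. Cotreated tumors lay above all vehicle tumors, and the lowest cisplatin tumor lay just under the highest vehicle tumor. It was called higher after cisplatin (log2 fold change 0.78, SE 0.24, adjusted p = 0.027) and cotreatment (log2 fold change 1.02, SE 0.24, adjusted p = 0.0019). The cisplatin call was lost among later codes, at 0.74 (adjusted p = 0.057), and without cisplatin replicate 2 or vehicle replicate 2, 3 or 5 (log2 fold change 0.57 to 0.77, adjusted p = 0.053 to 0.085). In the 13 tumors with little muscle marker RNA it was lost as well, at 0.95 (adjusted p = 0.11). Of 4 tested markers of lung epithelium and carcinoma, Krt8 was called higher in both comparisons (log2 fold change 0.53, adjusted p = 2.9e-04; 0.57, adjusted p = 3.1e-05), and its part in the higher Lama3 was not tested. Lamb3, the beta chain of the same trimer, averaged 0.361 ± 0.196, 0.396 ± 0.389, 0.111 ± 0.152 and 0.0810 ± 0.0640 CPM in vehicle, KW6002, cisplatin and cotreated tumors and was called only lower in cotreated than in KW6002 tumors (log2 fold change -2.19, SE 0.81, adjusted p = 0.040), from at most 33 reads in any tumor. That call was lost without KW6002 replicate 1 or 2 or cotreated replicate 1, 2, 3 or 5 (log2 fold change -1.46 to -2.38, adjusted p = 0.054 to 0.19). Among later codes the difference was -0.30 (adjusted p = 0.88) and among earlier ones -3.51 (adjusted p = 0.0069), and the call was lost with no filter on low counts, at -2.18 (adjusted p = 0.11), and in the 13 tumors with little muscle marker RNA, at -2.37 (adjusted p = 0.059).

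The other laminins make up most of the laminin RNA. Lama5, the broad epithelial and endothelial alpha chain, averaged 418 ± 65.2, 451 ± 47.9, 380.2 ± 37.8 and 375 ± 35.6 CPM in vehicle, KW6002, cisplatin and cotreated tumors. Lama4, the endothelial and mesenchymal alpha chain, averaged 73.4 ± 11.2, 65.9 ± 14.4, 55.7 ± 13.3 and 58.4 ± 7.38 CPM. Its log2 fold changes against vehicle missed the threshold, at -0.40 for cisplatin (adjusted p = 0.10) and -0.33 for cotreatment (adjusted p = 0.12). The part of the lower endothelial markers given above in these Lama4 values was not tested. Lamb1, the common beta chain, averaged 1463 ± 62.7, 1403 ± 77.4, 1383 ± 198 and 1314 ± 79.9 CPM. Lamb2, the beta chain of mature and synaptic basement membranes, averaged 70.6 ± 14.2, 72.4 ± 7.18, 84.2 ± 16.9 and 77.7 ± 2.64 CPM, and Lamc3 averaged 0.209 ± 0.105, 0.356 ± 0.0734, 0.341 ± 0.135 and 0.252 ± 0.0923 CPM. None of these 5 chains was called in any comparison. Lama5 made up 82.8 ± 1.78% of laminin alpha RNA per length in vehicle and 80.7 ± 2.44% in cotreated tumors, and the exact permutation tests of the Lama4, Lama5 and Lamb2 shares all missed the adjusted threshold.

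Lamc1, the gamma chain of nearly all laminins, had 718, 701, 759.5, 627 and 728.4 CPM in vehicle tumors and 733.9, 715, 667, 717 and 681 CPM in KW6002 tumors. With cisplatin, Lamc1 was at 641, 592, 525, 575 and 625 CPM, and with cotreatment at 695, 725, 790.4, 645 and 663 CPM. All cotreated tumors lay above all cisplatin tumors, and within the range of the vehicle tumors or above it. The difference between cotreated and cisplatin tumors (log2 fold change 0.25, SE 0.07, adjusted p = 0.025) and that between cisplatin and vehicle (log2 fold change -0.26, SE 0.07, adjusted p = 0.010) passed the adjusted p and stayed under the fold limit, while cotreated tumors differed from vehicle by -0.01.

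On the leukocyte side, the common beta 2 chain was not called in any comparison, while some alpha chains and beta 7 were. Itga4, the alpha chain of VLA-4, which binds VCAM-1 and fibronectin on lymphocytes and monocytes, fell 1.33-fold with cisplatin and 1.58-fold with cotreatment. Itgal, the LFA-1 alpha chain of lymphocytes, fell 1.60-fold with cotreatment. Itgb7, the beta chain of the gut-homing receptor and of the CD103 receptor, rose 1.32-fold with cisplatin.

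Itgb2 had 166, 160.4, 124, 179.8 and 162 CPM in vehicle tumors and 150.1, 203, 189, 163 and 161 CPM in KW6002 tumors. With cisplatin, Itgb2 was at 162, 140.4, 166, 168 and 184 CPM, and with cotreatment at 146, 142, 156, 165 and 179 CPM. The 4 groups overlapped throughout, with log2 fold changes of 0.05 for cisplatin (SE 0.10) and -0.01 for cotreatment (SE 0.10). Itgam, its partner in Mac-1 on macrophages and neutrophils, averaged 62.7 ± 8.44, 76.1 ± 11.2, 67.3 ± 8.24 and 73.1 ± 9.26 CPM in vehicle, KW6002, cisplatin and cotreated tumors and was not called. Itgam shares 68.7% of its exon bases with the same-strand model Gm49368, so its level per length is uncertain. Its share among the beta 2 partners Itgal, Itgam, Itgax and Itgad was 69.8 ± 5.62% in vehicle and 77.5 ± 1.33% in cotreated tumors (exact permutation p = 0.00794, adjusted p = 0.0408).

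Itga4 had 13.6, 14.9, 12.8, 15.6 and 15.1 CPM in vehicle tumors and 18.1, 17.99, 13.99, 16.2 and 19.3 CPM in KW6002 tumors. With cisplatin, Itga4 was at 12.8, 10.97, 12.01, 9.08 and 9.27 CPM, and with cotreatment at 11.4, 8.05, 10.3, 8.42 and 7.39 CPM. All cotreated tumors lay below all vehicle and KW6002 tumors, and the highest cisplatin tumor stood just above the lowest vehicle tumor. Cisplatin (log2 fold change -0.41, SE 0.12, adjusted p = 0.025) and cotreatment (log2 fold change -0.66, SE 0.12, adjusted p = 3.2e-04) were called lower than vehicle. The cisplatin call was lost in turn without cisplatin replicate 4 or 5 or vehicle replicate 2, 4 or 5 (log2 fold change -0.34 to -0.39, adjusted p = 0.053 to 0.076), and in the 13 tumors with little muscle marker RNA, at -0.55 (adjusted p = 0.064). An opposite-strand gene, Cerkl, overlaps 8.04% of the exon bases of Itga4 and drew 182 reads over all tumors.

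Itgb7 (ENSMUSG00000001281, chr15:102215995-102231944, minus strand) had 238, 241, 229.5, 228 and 227 CPM in vehicle tumors and 230.2, 201, 258, 238 and 237 CPM in KW6002 tumors. With cisplatin, Itgb7 was at 259, 314, 337, 318 and 303 CPM, and with cotreatment at 219.98, 253, 249, 297 and 259 CPM. Each cisplatin tumor exceeded every tumor not given cisplatin, and the cotreated tumors overlapped with all groups. Itgb7 was called higher after cisplatin (log2 fold change 0.40, SE 0.08, adjusted p = 0.0014) and not after cotreatment (log2 fold change 0.13, SE 0.08, adjusted p = 0.18), and the difference between those groups passed the adjusted p under the fold limit (log2 fold change -0.26, SE 0.08, adjusted p = 0.044). Its level far exceeded those of its known partners. Per length, Itgb7 averaged 82.1 times Itga4 and 313 times Itgae in vehicle tumors, and it exceeded even Itgb2, at 1.64 times in vehicle and 2.07 times in cisplatin tumors, in all 20 tumors. Itgb7 is grouped with the leukocyte chains by its known use. Which cells of these tumors, carcinoma or host, held its RNA was not tested.

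The remaining leukocyte chains were low. Itgal averaged 9.21 ± 1.89, 12.5 ± 4.67, 8.09 ± 0.985 and 5.74 ± 0.913 CPM in vehicle, KW6002, cisplatin and cotreated tumors, with cotreated tumors at 4.60 to 6.77 CPM below the vehicle range of 7.66 to 12.2 CPM (log2 fold change -0.68, SE 0.19, adjusted p = 0.0085), a difference of -0.65 (adjusted p = 0.069) among later codes and of -0.66 (adjusted p = 0.075) in the 13 tumors with little muscle marker RNA. Itgax, the CD11c chain of dendritic cells and macrophages, averaged 19.01 ± 3.39, 21.5 ± 2.999, 17.4 ± 1.36 and 16.2 ± 2.83 CPM, and Itgae, the CD103 chain of tissue-resident lymphocytes and dendritic cells, 1.25 ± 0.211, 1.74 ± 0.416, 0.964 ± 0.401 and 0.855 ± 0.118 CPM. Both were called only lower in cotreated than in KW6002 tumors (Itgax, log2 fold change -0.41, SE 0.13, adjusted p = 0.015; Itgae, log2 fold change -1.02, SE 0.24, adjusted p = 0.0022), where Itga4 and Itgal were lower as well (-0.91 and -1.13). Among later codes alone the Itgax and Itgae differences were -0.50 (adjusted p = 0.11) and -0.88 (adjusted p = 0.089), and among earlier codes that of Itgax was -0.35 (adjusted p = 0.10). In KW6002 tumors all 7 leukocyte chains had a positive log2 fold change against vehicle, from 0.00 to 0.47, and none passed the test. The same sign was seen in 8 of 17 matrix chains and 6 of 10 laminins, and the median over all genes was -0.003.

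Leukocyte markers were counted by lineage, and differences between lineages were not tested. The counts are for cotreated against vehicle tumors unless another comparison is named, and stand beside 13.1% of all genes called higher and 10.4% called lower. Of 6 pan-leukocyte markers, 0 were called higher and 2 lower in cotreated against vehicle tumors, and the sum ranged over 449.7 to 519 CPM, 519 to 567 CPM, 432 to 669 CPM and 418 to 497 CPM in vehicle, KW6002, cisplatin and cotreated tumors. Of 7 macrophage markers, 1 was called higher and 1 lower, with sums of 1150.4 to 1621 CPM, 1189 to 1489 CPM, 1270.2 to 2252 CPM and 1268 to 1635 CPM. Neutrophil markers were called lower for 4 of 5 tested, with sums of 44.7 to 120.1 CPM, 48.5 to 147 CPM, 13.8 to 67.3 CPM and 13.6 to 32.4 CPM. Dendritic cell markers were called lower for 3 of 5, with sums of 10.3 to 15.3 CPM, 12.4 to 20.6 CPM, 10.6 to 16.3 CPM and 8.79 to 10.5 CPM, and T and NK cell markers for 0 of 8, with sums of 2.42 to 9.64 CPM, 4.74 to 30.4 CPM, 3.99 to 12.5 CPM and 3.001 to 5.93 CPM. B cell markers were called for 0 of 3 tested, with a high sum of 116 CPM in KW6002 replicate 1, which was also the highest tumor for Itgal. Ly6g, Xcr1, Cd3e, Cd8a and Ms4a1 were at 0 reads in at least 1 tumor, and no marker of these lists was at 0 in every tumor. In cotreated against KW6002 tumors, 6 of 8 T and NK cell markers and 4 of 5 neutrophil markers were called lower. So were 3 of 5 dendritic cell, 1 of 3 B cell and 2 of 6 pan-leukocyte markers. Of 7 macrophage markers, 1 was called higher and 1 lower there. These stand beside 12.6% of all genes called higher and 10.7% called lower in that comparison. The part of these shifts in Itga4, Itgal, Itgax and Itgae was not tested.

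**Figure D5:**
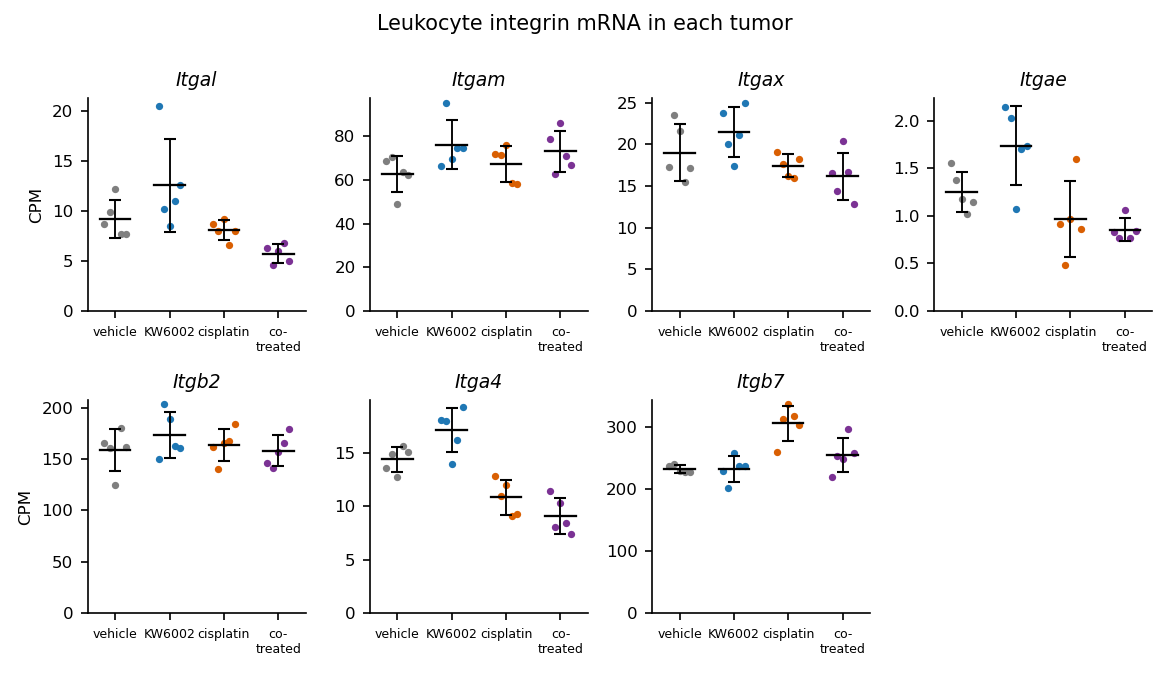
CPM of the 7 leukocyte integrin chains in each tumor (points) with the mean and SD of the 5 tumors per group. Itgb2 overlaps among all groups, Itgb7 is raised in the 5 cisplatin tumors, and Itga4 and Itgal are lowest in cotreated tumors.

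Genes that work with these chains were tested as 5 lists, to be read beside the 10.6% of all genes called after cisplatin and the 23.5% called after cotreatment. Of 27 tail adaptors and kinases tested, 3 were higher and 1 lower after cisplatin, and 4 and 3 after cotreatment, the latter total, 7 of 27, lying near the 23.5% of all genes. Tns1, a tensin that links integrin tails to actin, stood at 31.3 ± 3.61 CPM in vehicle tumors and rose with cotreatment to 90.2 ± 26.4 CPM (log2 fold change 1.53, adjusted p = 7.5e-05), with cisplatin tumors at 50.7 ± 20.2 CPM. Sharpin, which keeps integrins inactive, also rose with cotreatment (log2 fold change 0.40, adjusted p = 1.3e-05). Tln2, a talin that activates integrins (log2 fold change -0.44, adjusted p = 2.7e-04), and Parvb, a parvin (log2 fold change -0.35, adjusted p = 9.7e-04), fell. The call on Parvb was lost without cotreated replicate 5 (log2 fold change -0.29, adjusted p = 0.0046).

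Of 12 other basement membrane genes tested, 1 was higher and 3 lower after cotreatment, against 2 and 1 after cisplatin (23.5% and 10.6% of all genes). Col18a1, which encodes the endostatin-bearing collagen XVIII, rose (log2 fold change 0.37, adjusted p = 0.0081), and the laminin-binding linkers Nid2 (log2 fold change -0.94, adjusted p = 4.1e-04) and Agrn (log2 fold change -0.35, adjusted p = 7.2e-04) fell. Among 15 ligands other than laminins, 2 were higher and 5 lower after cotreatment, and 2 and 4 after cisplatin, beside the same 23.5% and 10.6%. Vcam1, the endothelial ligand of the Itga4 receptor, fell with cotreatment from 145 ± 24.4 to 94.8 ± 8.70 CPM (log2 fold change -0.61, adjusted p = 6.7e-05). Icam2, an endothelial ligand of beta 2 integrins, fell (log2 fold change -1.25, adjusted p = 3.6e-05). The endothelial markers given above were lower in the same comparison, 6 of 8 called, with sums of 155 to 230.1 CPM in vehicle and 83.8 to 125 CPM in cotreated tumors, and their part in the lower Vcam1 and Icam2 was not tested. Ltbp1, which presents latent TGF-beta to alpha v receptors (log2 fold change 0.79, adjusted p = 4.4e-07), and Npnt, a basement membrane ligand of alpha 8 (log2 fold change 0.74, adjusted p = 0.0082), rose. Of 8 other laminin and collagen receptors only Rpsa, which encodes a ribosomal protein also known as a laminin receptor, was called against vehicle (cotreatment, log2 fold change -0.37, adjusted p = 0.0079), and of 6 tetraspanins only Cd82 (cotreatment, log2 fold change -0.35, adjusted p = 0.0013). Calls were lost without vehicle replicate 4 for Col18a1 (log2 fold change 0.28, adjusted p = 0.020), without vehicle replicate 3 for Rpsa (log2 fold change -0.32, adjusted p = 0.032), without vehicle replicate 2 or 3 or cotreated replicate 2 for Agrn (log2 fold change -0.30 to -0.31, adjusted p = 0.0039 to 0.0045), and without vehicle replicate 3 or cotreated replicate 2 for Cd82 (log2 fold change -0.32 to -0.32, adjusted p = 0.0068 to 0.0077). Among later codes the calls were lost for Agrn at -0.30 (adjusted p = 0.076), Cd82 at -0.25 (adjusted p = 0.14), Col18a1 at 0.31 (adjusted p = 0.24), Npnt at 0.80 (adjusted p = 0.081) and Rpsa at -0.28 (adjusted p = 0.14). In the 13 tumors with little muscle marker RNA they were lost for Cd82 at -0.31 (adjusted p = 0.030), Npnt at 0.59 (adjusted p = 0.099) and Rpsa at -0.37 (adjusted p = 0.061). Medians of the 5 lists lay between -0.28 and 0.07 for cisplatin and cotreatment against vehicle, beside 0.00 and -0.02 over all genes.

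The interaction between KW6002 and cisplatin was called for 0 of the 34 members by edgeR, beside 0.066% of all genes. An unadjusted p under 0.05 was given to 9 members and to 12.2% of all genes. DESeq2 called 2 members, and 263 of the 13365 genes to which it gave an adjusted p. Among members, the interaction ranged from -1.55 to 1.33 on the log2 scale, and Itga10 had its highest value. None of the 5 lists of interacting genes had a called gene in the interaction or in the comparison of KW6002 with vehicle. With KW6002 alone, the members' log2 fold changes ranged from -0.34 to 0.75, the ends being Itga11 and Lamc3, and no member was called.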

How the data were processed

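RNA was measured in 20 LLC1 tumors (4 groups of 5). Per the labels and the study's methods, the authors prepared stranded poly(A) libraries and sequenced single-end reads. They aligned them to mm10 with STAR and made the deposited raw counts of unique reads per gene with HTSeq 0.6.1p1 in union mode. bcl2fastq 2.17.1.14 is also named in the submitters' processing notes. The HTSeq strand setting is not given in the sources used here. Whether reads over exon bases shared with an opposite-strand gene were assigned by strand or counted for neither gene is therefore not known.

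Counts were tested as deposited with edgeR 4.0.16 in R 4.3.3. The fit used robust quasi-likelihood, TMM scaling, filterByExpr by group and 1 fit of all 20 tumors with 4 group means, and p-values were Benjamini-Hochberg adjusted over 16665 genes (99.9% of reads). Calls needed an adjusted p under 0.05 and a log2 fold change of 0.32 or more in size. The common biological coefficient of variation was 0.163. CPM used TMM-scaled library sizes, and CPM per kilobase used exon unions of GENCODE M21 (GRCm38). Where a union is longer than the transcript expressed, the level per length is understated. Subunit shares were compared by exact permutation of tumors. Depth was 28371364 to 40965731 reads. The edgeR p-values weigh a difference between groups against the spread between tumors, estimated over all 4 groups together. DESeq2 1.42.0, other scalings and filters, library codes, a replicate block and omission of each tumor were alternatives.

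Members and gene lists were chosen with earlier results of these data known. Values in every tumor are given for the 5 raised and 5 lowered members with the smallest adjusted p per comparison with vehicle and of cotreatment with cisplatin, and for Itgb1, Itgb2, Itgav and Lamc1. Of each pathway list, the 2 raised and 2 lowered called genes with the smallest adjusted p after cotreatment are named. Individual values of 1 member and 1 marker gene are not reported here, and both remain in the counts and sums. All sample columns of the count table were used.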

Additional observations from a re-analysis of the deposited data

Results flagged for a closer look

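In 164 groups of 5 values (the CPM of 33 members and 8 subunit shares in each treatment group), 8 had 1 tumor far from the other 4 by Dixon's gap test, which chance alone flags in about 1 in 20 groups. Among leukocyte chains, Itgam stood at 95.2 CPM in KW6002 replicate 2, against 66.6 to 74.7 CPM in the others of its group. Itgae stood at 1.06 CPM in cotreated replicate 3, against 0.771 to 0.842 CPM. Among matrix-binding chains, Itgb3 stood at 17.3 CPM in cisplatin replicate 1, against 11.0 to 12.7 CPM, and its share of the alpha v partners was 11.1% in vehicle replicate 5, against 13.8 to 14.8%. Itga2b stood at 3.0 CPM in vehicle replicate 4, against 4.39 to 4.79 CPM. Itgb4 was low in KW6002 replicate 1 at 8.55 CPM, against 12.1 to 13.4 CPM, and Itga11 was high in that tumor at 1.24 CPM, against 0.506 to 0.672 CPM. Among laminins, Lama4 made up 9.74% of laminin alpha RNA per length in cotreated replicate 4, against 12.3 to 12.6%.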

How the results depend on the processing

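Of 35 member calls, 16 held under every alternative, 29 held when any 1 tumor was left out, and 0 changed direction. Members called after cisplatin numbered 9, 14 among later library codes, 4 when tested against the fold limit of 0.32, and 7 to 11 with 1 tumor left out. After cotreatment there were 11, 8 each among later codes and against the fold limit, up to 14 with no fold limit or with only the groups compared in the fit, and 10 to 13 with 1 tumor left out. Between cotreated and cisplatin tumors there were 2, and 0 among later codes, 5 with no fold limit, 1 to 3 with 1 tumor left out, and 1 each with only these 2 groups in the fit, against the fold limit, with upper quartile scaling and in tumors with little skeletal muscle marker RNA, the last added after seeing the data. Between cotreated and KW6002 tumors there were 13, 8 among later codes, 9 against the fold limit, 16 with no fold limit and 11 to 14 with 1 tumor left out. The interaction had 0 members, 1 with at least 10 counts in every tumor, 2 by DESeq2 and 0 to 2 with 1 tumor left out, reaching 2 without cotreated replicate 4. Subunit shares past the adjusted threshold numbered 7, and 0 to 7 with 1 tumor left out, the 0 coming with any vehicle, cisplatin or cotreated tumor omitted. Smaller groups raise the smallest p the exact test can give. The 7 include both the Itgb3 and the Itgb5 share of the same alpha v partners, which are not independent of each other. KW6002 against vehicle had 0 members throughout. Calls over all genes moved too: after cisplatin 1762, 2743 among later codes and 447 against the fold limit, between cotreated and cisplatin tumors 667, 1 and 28, and for the interaction 11, 39 with at least 10 counts in every tumor, 263 by DESeq2 and 229 without cotreated replicate 4.

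Replicate numbers did not pair the tumors, since same-numbered tumors deviated together with correlations from -0.39 to 0.39 over 30 pairs of samples and 3 of 20 tumors correlated best with their own number. With a replicate block, members called numbered 0 for KW6002, 8 for cisplatin and 11 for cotreatment against vehicle, 1 between cotreated and cisplatin tumors, 12 between cotreated and KW6002 tumors and 0 for the interaction. The calls lost with it were Lama3 after cisplatin (adjusted p = 0.060), Itgb8 after cotreatment (0.054, while 1 other member was gained), Itga5 between cotreated and cisplatin tumors (log2 fold change 0.318, under the limit) and Lamb3 between cotreated and KW6002 tumors (0.070). Limits on depth fall on Lamb3, Lamc3, Itga8, Itgae and Itga11, which held the fewest reads.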
